A study of Mus musculus with 6 samples.

Results

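The lung carries a set of enzymes that oxidise, conjugate, reduce and hydrolyse inhaled chemicals and that dispose of oxidants, and 38 genes of this set were followed here by name. A gene was taken where its symbol stood alone on at least 1 probe set of the array annotation, and 36 of the 38 were measured, with 60 probe sets, among 18193 genes in all. The brightest probe set represented each gene. Por, the reductase that hands electrons to the cytochromes P450, had no probe set under its own symbol in the annotation used here. The probe set of Cyp2a5 also carries the symbol of its relative Cyp2a4, so no value is given for it.

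Foreign compounds are handled in stages. Cytochromes P450 and flavin monooxygenases add oxygen, drawing electrons from NADPH through their partner proteins. Glutathione transferases, sulfotransferases and related enzymes then couple the product to a water-soluble group, while aldehyde dehydrogenases, carbonyl reductases, esterases and epoxide hydrolases convert reactive intermediates. In the mouse lung many of these enzymes are concentrated in club cells, the secretory cells of the bronchioles, whose P450 content makes them the target of toxicants such as naphthalene. A separate group, including Hmox1, Nqo1 and Txnrd1, is induced in many tissues by the oxidant-sensing factor encoded by Nfe2l2, which binds the antioxidant response element.

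RNA of whole lungs was hybridised to 1 whole-genome mouse array per sample at postnatal day 15. The control group comprised 3 samples with the genotype label wildtype, control. The null group comprised 3 samples with the genotype label Foxa2-/-. Foxa2 encodes a DNA-binding factor of airway and alveolar epithelium. The sample source name places doxycycline (Dox) at embryonic day 6.5 to 12.5. The strain label of both groups reads SPC(+)Cre(-), so it names no Cre in either group and conflicts with what the null genotype states. As background, SPC stands for surfactant protein C, whose promoter is used in doxycycline-controlled mice to direct Cre to lung epithelial cells. Values are log2 signals, and a difference is null minus control.

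Foxa2 itself read 10.28, 10.56 and 10.28 on the control arrays and 7.72, 5.38 and 5.13 on the null arrays. Null replicate 1 kept the most signal, and the groups did not overlap (limma adjusted p = 0.0599). The titles of control replicate 2 and of null replicates 2 and 3 open with 1 common number, whose meaning is not stated; differences among those 3 samples are given below as values within the shared number. RNA integrity, read as how far the 3-prime Gapdh control signal exceeds the 5-prime one, was 1.06 to 1.23 on control arrays and 0.91 to 0.97 on null arrays. The same measure from Actb overlapped, at 0.46 to 0.65 on control arrays and 0.43 to 0.47 on null arrays. The part of RNA integrity in the comparisons below was not tested. The tissue carried the defining genes of lung on every array, with Sftpc of alveolar type II cells between 14.35 and 14.43 and Ager of alveolar type I cells between 14.19 and 14.50. The hepatocyte markers Alb, Apoa1 and Apoa2 lay between 5.50 and 7.43.

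The sequences below are 3 upstream windows shown because each holds, in capitals, the core letters of an antioxidant response or FOXA site. A further window with a FOXA core, at 1 of the 2 Fmo2 starts, is not shown. It lies downstream of that gene's other annotated start. The Txnrd1 window, which is shown, likewise lies downstream of 1 of the other annotated Txnrd1 starts. The sequences shown are the 250 bases before the annotated start, 5′ to 3′ on the strand of the gene, from RefSeq on build GRCm38.p6. In Gsta3, the single gene of the 36 that passed the test, the capitals are a match to TGACNNNGC, the core of the antioxidant response element. In Txnrd1 they are the same core on the opposite strand, in the middle of 3 annotated start windows. In Ephx1 they are TGTTTGC, a FOXA core.
Gsta3, chr1:21240335-21240584, plus strand: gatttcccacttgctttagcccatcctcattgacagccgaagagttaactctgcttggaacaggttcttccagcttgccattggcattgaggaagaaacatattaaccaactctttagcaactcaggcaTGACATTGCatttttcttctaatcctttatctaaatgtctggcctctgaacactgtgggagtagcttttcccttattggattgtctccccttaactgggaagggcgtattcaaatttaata
Txnrd1, chr10:82858956-82859205, plus strand: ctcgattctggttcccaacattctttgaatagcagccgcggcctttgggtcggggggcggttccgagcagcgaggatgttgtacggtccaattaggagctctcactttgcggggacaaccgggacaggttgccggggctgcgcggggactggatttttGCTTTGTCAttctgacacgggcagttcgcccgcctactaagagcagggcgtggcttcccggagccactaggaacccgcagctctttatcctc
Ephx1, chr1:181017570-181017819, minus strand: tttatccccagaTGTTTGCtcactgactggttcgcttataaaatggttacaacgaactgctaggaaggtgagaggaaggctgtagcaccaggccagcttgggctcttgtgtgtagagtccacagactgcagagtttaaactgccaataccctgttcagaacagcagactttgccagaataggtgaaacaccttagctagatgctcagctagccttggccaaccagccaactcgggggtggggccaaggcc

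The match in Gsta3 lies 121 to 113 bases before the start and that in Txnrd1 92 to 84 bases before it. Windows of 30 of the 38 genes were found, 35 in all, and both strands were searched. The antioxidant response core occurred in 2 of these 35 windows (5.71%) and in 10.2% of all 32851 windows of the table. A FOXA core, TGTTTAC or TGTTTGC, occurred in 2 windows (5.71%), those of Ephx1 and of 1 of the 2 Fmo2 starts, against 7.29% of all windows. GCGTG, the core bound by the dioxin receptor, occurred in 12 windows (34.3%), among them those of Cyp1a1 and Cyp1b1, against 28.2% of all windows. Counted per gene, since Txnrd1 and Gstm1 have several windows, GCGTG occurred in 9 of the 30 genes (30%), against 30.9% of all genes in the table. These matches are letters within the windows searched and not evidence of binding.

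Of the 36 measured genes 1, Gsta3, fell in the Foxa2-null lungs at an adjusted p under 0.05, where 0.572% of all genes passed in either direction and 0.0989% passed downward. No member rose, where 0.473% of all genes did; 2 of the 36 were higher and 7 lower by limma at an unadjusted p under 0.05. The difference was negative for 27 of the 36 and positive for 9, while 49.2% of all genes had a negative one. The median difference of the 36 genes was -0.20, beside 0.01 over all genes. Every null array lay below all 3 controls for 9 of the 36 genes (25%), where 8.73% of all genes did so, and above all 3 for 2, where 10.8% of all genes did so; 19.6% of all genes had 1 of these patterns. In whole-lung RNA, fewer cells of a type and less RNA per cell cannot be told apart.

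**Figure D1:**
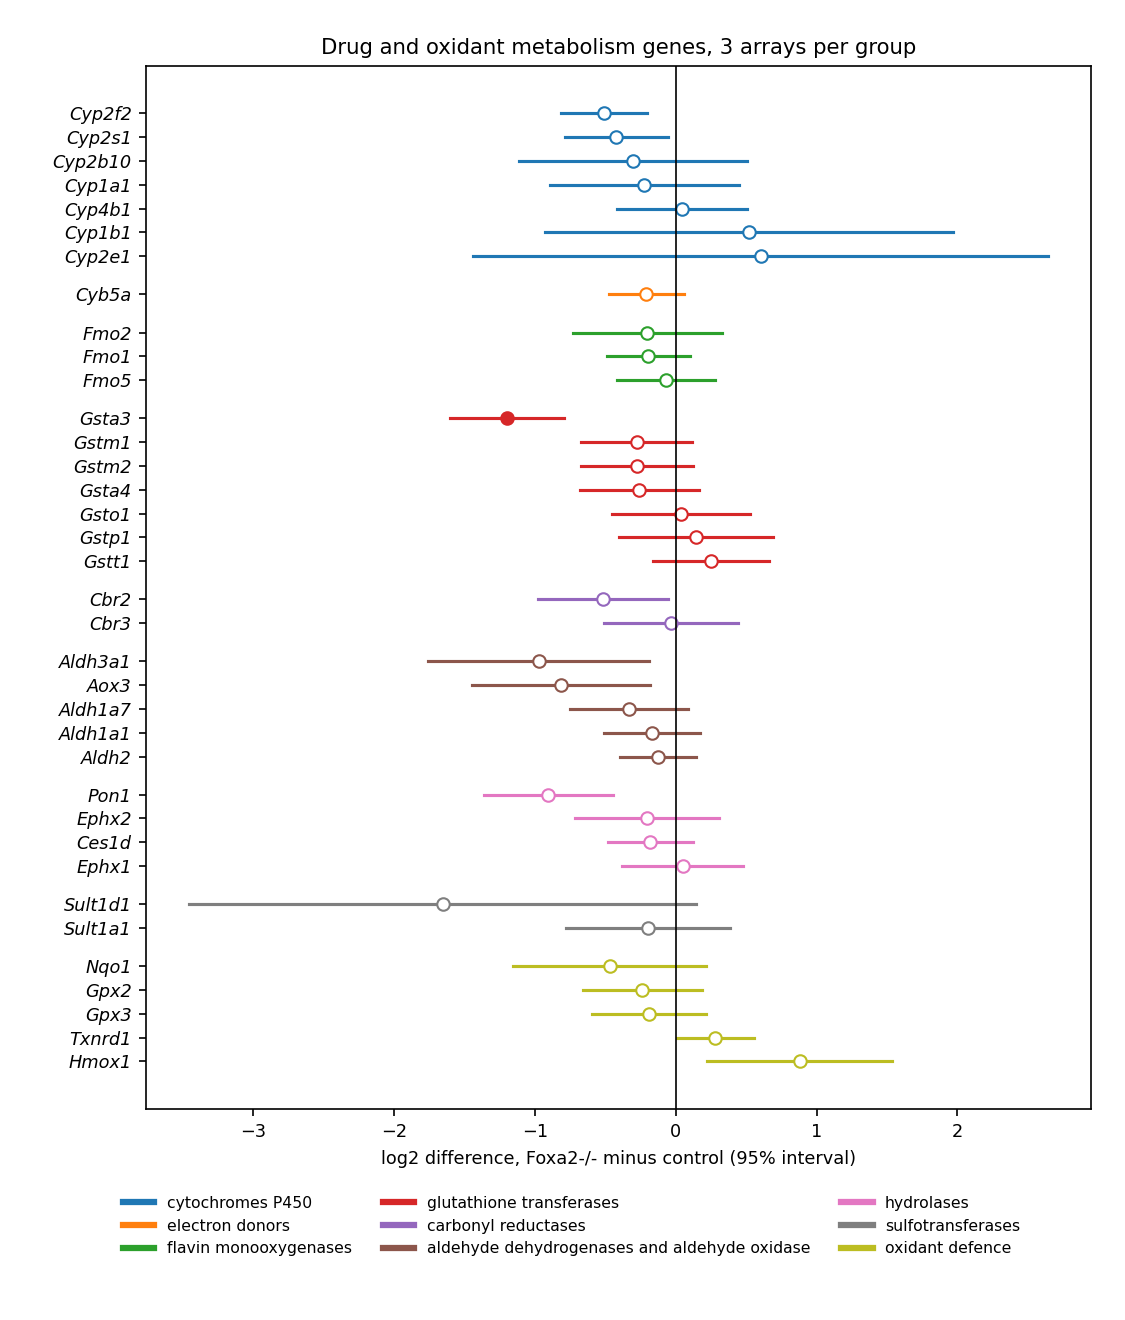
Differences of the 36 measured genes by enzyme family, as log2 null minus control on the horizontal axis, with 95% limma intervals from 3 arrays per group; the filled point passed at an adjusted p under 0.05. Gsta3 is the only filled point, most points lie left of 0, and the widest intervals are those of Cyp2e1 and Sult1d1.

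The precision differed between genes. The 95% interval of the difference lay within 2-fold in both directions for 26 of the 36 genes, spanned 0 for 27 and excluded 0 for 9. At that unadjusted threshold 5.07% of all genes were lower, 7.28% higher and 12.3% either. Adjusted p values of the 35 genes that did not pass ran from 0.118 for Pon1 to 0.958 for Cbr3. The size of the difference was below 0.3 for 22 of the 36 genes.

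Among the glutathione transferases, which couple glutathione to reactive compounds, Gsta3 fell 2.30-fold. Gsta3 encodes an alpha-class subunit that in the mouse is known for inactivating aflatoxin epoxide. It read 10.99, 10.68 and 10.90 in controls and 9.67, 9.39 and 9.92 in null lungs. The lowest control lay 0.77 above the highest null array. Means were 10.86 ± 0.16 and 9.66 ± 0.27 (SD, n = 3 each), a difference of -1.20 (SE 0.17, 95% interval -1.61 to -0.79) with a limma adjusted p of 0.0499. Its dimmer probe set gave -1.03 (SE 0.19) and also had every null array below all controls, with control values of 8.31, 8.16 and 8.25 and null values of 7.26, 6.84 and 7.53.

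The size of this fall was steadier than its call. Within the shared number it was -1.03, and leaving out each array in turn gave -1.33 to -1.06. The call nevertheless ended without any 1 array: the limma adjusted p was 0.201, 0.146 and 0.137 without control replicates 1, 2 and 3, and 0.061, 0.126 and 0.0967 without null replicates 1, 2 and 3. It also ended with cyclic loess normalisation (0.0573), with the mean of the 2 probe sets (0.0559) and with the shared number as a fixed block (0.38). In the fit over all probe sets, where 0.0999% passed, the brighter Gsta3 probe set had an adjusted p of 0.0821.

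The other 6 measured transferases showed no such gap. Gsta4, another alpha-class member that acts on lipid aldehydes, differed by -0.26 (SE 0.17, adjusted p = 0.614). The mu-class genes Gstm1 and Gstm2 are direct neighbours in the genome and had near-equal differences of -0.28 (SE 0.16) and -0.28 (SE 0.17). Null replicate 1 read 12.96 for Gstm1 and 12.38 for Gstm2, inside the control ranges of 12.82 to 13.09 and 12.21 to 12.40, and the other null arrays lay below those ranges. Gstt1 (0.25, SE 0.17), Gstp1 (0.14, SE 0.23) and Gsto1 (0.04, SE 0.20) had positive differences within the spread of the arrays. The sign of the last 2 turned without null replicate 1 (-0.09 and -0.07).

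The cytochromes P450 gave no gene that passed, and 4 of the 7 measured had a negative difference. Cyp2f2, the club cell enzyme that activates naphthalene, read 13.17, 13.14 and 13.08 in controls and 12.74, 12.41 and 12.70 in null lungs. The controls lay close together and every null array was at least 0.34 below them. The means of 13.13 ± 0.04 and 12.62 ± 0.18 (SD, n = 3 each) differ by -0.51 (SE 0.13, 95% interval -0.81 to -0.21), a 1.42-fold lower signal with a limma adjusted p of 0.165. Within the shared number Cyp2f2 differed by -0.58, and with arrays weighted by their quality, where 607 genes passed in all, it passed (-0.58, adjusted p = 0.047).

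Cyp2s1, an epithelial P450 inducible by dioxin, had the same pattern at a smaller gap. It read 11.25, 10.82 and 10.91 in controls and 10.74, 10.51 and 10.48 in null lungs, a difference of -0.42 (SE 0.15, adjusted p = 0.338). The lowest control exceeded the highest null array by 0.09.

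The other 5 P450 genes overlapped between the groups. Cyp4b1, a lung P450 that activates furans, differed by 0.04 (SE 0.19, 95% interval -0.42 to 0.51). Its sign turned with array weights (-0.08) and with the shared number as a fixed block (-0.04), but not with that number as a random block (0.02). Cyp2b10, whose hepatic form is induced by phenobarbital, differed by -0.30 (SE 0.34), and control replicate 2 stood above the rest at 12.57 against 11.15 to 12.03 on the other 5 arrays. Without that array the difference was 0.00, without null replicate 2 it was -0.04, and within the shared number, where that array is the only control, it was -1.09. Cyp2b10 and Cyp2s1 are direct neighbours in the genome, with values of -0.30 and -0.42.

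Single arrays decided the remaining P450 values. Cyp2e1, which oxidises ethanol and other small solvents, read 10.23, 9.94 and 7.10 in controls against 9.98, 8.88 and 10.23 in null lungs. Control replicate 3 alone was low, and without it the difference of 0.60 (SE 0.85) became -0.39. Cyp1b1, a dioxin-inducible P450 of mesenchymal and other cells, read 8.31, 8.04 and 9.00 in controls and 7.59, 9.92 and 9.40 in null lungs. Null replicate 1 was the lowest and null replicates 2 and 3 the highest of the 6, and the difference of 0.52 (SE 0.60) was 1.62 within the shared number. Leaving out 1 array moved it between 0.04, without null replicate 2, and 1.21, without null replicate 1, and leaving out control replicate 2 or else null replicate 3 gave 0.31. Cyp1a1, the classic dioxin-induced P450, was dim, with a mean over all arrays below the 25th percentile of probe sets. Control replicate 2 alone read 6.22, with 5.20 to 5.52 on the other arrays.

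Cyb5a, the cytochrome b5 that passes electrons to P450 enzymes and desaturases, read 12.72, 12.68 and 12.58 in controls and 12.34, 12.54 and 12.48 in null lungs. The groups were apart by 0.04, and the difference of -0.21 (SE 0.11, adjusted p = 0.516) did not pass. The flavin monooxygenases, which oxidise nitrogen and sulfur groups, had small negative differences. Fmo1 and Fmo2, direct neighbours in the genome, differed by -0.20 (SE 0.12) and -0.20 (SE 0.22), and Fmo5 by -0.07 (SE 0.14). Fmo2 is the main form of mouse lung. Its 5 probe sets gave -0.71 to -0.20, the widest spread among the 11 genes with several probe sets, and null replicate 3 (13.38) was level with control replicate 3 (13.40) while null replicates 1 and 2 read 12.75 and 12.69.

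All 5 genes of the aldehyde group had negative differences, and every null array lay below all controls for 3 of them, but none passed. Over all genes 49.2% had a negative difference and 8.73% had every null array below. Aldh3a1, an aldehyde dehydrogenase known for its abundance in cornea and its induction by dioxin, read 9.08, 8.26 and 8.43 in controls and 7.90, 6.99 and 7.96 in null lungs. Each null array lay at least 0.30 below the controls, and null replicate 2 was the lowest. The difference was -0.97 (SE 0.33, 95% interval -1.76 to -0.19), 1.96-fold lower with a limma adjusted p of 0.3, and -0.79 within the shared number.

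Aox3, an aldehyde oxidase that also oxidises nitrogen heterocycles, read 10.50, 9.77 and 10.05 in controls and 8.95, 9.72 and 9.20 in null lungs. Null replicate 2 came within 0.04 of control replicate 2, and the groups overlapped after cyclic loess normalisation. The difference of -0.81 (SE 0.26, adjusted p = 0.28) shrank to -0.30 within the shared number, which holds that pair.

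Aldh2, the mitochondrial enzyme that clears acetaldehyde, differed little on its brightest probe set. It read 13.49, 13.41 and 13.41 in controls and 13.40, 13.17 and 13.35 in null lungs (-0.13, SE 0.11). Its groups were apart by 0.01 and overlapped after median centring and after cyclic loess. The 5 Aldh2 probe sets gave -0.59 to -0.10, and their mean gave -0.26 (adjusted p = 0.554). Aldh1a1, which oxidises retinal, and its neighbour Aldh1a7 differed by -0.17 (SE 0.14) and -0.33 (SE 0.17), and both overlapped between the groups.

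Cbr2 encodes the carbonyl reductase that is abundant in mouse lung and serves as a club cell marker. It read 13.85, 13.74 and 13.94 in controls and 13.67, 12.96 and 13.33 in null lungs. Null replicate 1 lay 0.06 below the lowest control and the other null arrays further down. The difference was -0.52 (SE 0.19, 95% interval -0.98 to -0.06, adjusted p = 0.349). It was -0.70 without null replicate 1 and -0.34 without null replicate 2. Cbr3, a related cytosolic reductase, differed by -0.04 (SE 0.20), with a sign that turned in several settings.

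Among the hydrolases Pon1 stood apart from the other 3. Pon1 encodes paraoxonase, a secreted esterase that hydrolyses organophosphates and lactones. It read 10.39, 9.99 and 9.68 in controls and 9.13, 9.04 and 9.18 in null lungs. The null arrays lay within 0.14 of one another, and the lowest control was 0.50 above them. Means were 10.02 ± 0.36 and 9.12 ± 0.07 (SD, n = 3 each), a difference of -0.90 (SE 0.19, 95% interval -1.36 to -0.45), 1.87-fold lower with a limma adjusted p of 0.118. It was -0.88 within the shared number and passed with array weights (adjusted p = 0.0396) and with the shared number as a random block (adjusted p = 0.0447), settings that raised the calls over all genes from 104 to 607 and 399. With that number as a fixed block its adjusted p was 0.291.

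Ces1d, a carboxylesterase of lung and liver, differed by -0.18 (SE 0.13), and its 3 probe sets gave -0.27 to -0.17. The epoxide hydrolases Ephx1, of the microsomes, and Ephx2, the soluble form that acts on fatty acid epoxides, differed by 0.05 (SE 0.18) and -0.21 (SE 0.21). Without null replicate 1, which read 12.17 and was the highest of the 6 arrays, Ephx1 was -0.13. The signs of Ephx1 and of Ephx2 turned within the shared number (-0.19 and 0.16).

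Sult1d1, a sulfotransferase that acts on catecholamines and eicosanoids, had the largest difference of the 36 genes in size and did not pass. It read 8.88, 7.09 and 9.39 in controls and 5.97, 6.35 and 8.08 in null lungs. Control replicate 2 lay among the null values and null replicate 3 above that control, so the groups overlapped. The difference of -1.66 (SE 0.75, 95% interval -3.46 to 0.14, adjusted p = 0.443) was 0.12 within the shared number and -2.34 to -1.19 with 1 array left out. The other probe set, dim on these arrays, gave -1.51 (SE 0.61). Sult1a1, the phenol sulfotransferase, differed by -0.20 (SE 0.24).

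**Figure D2:**
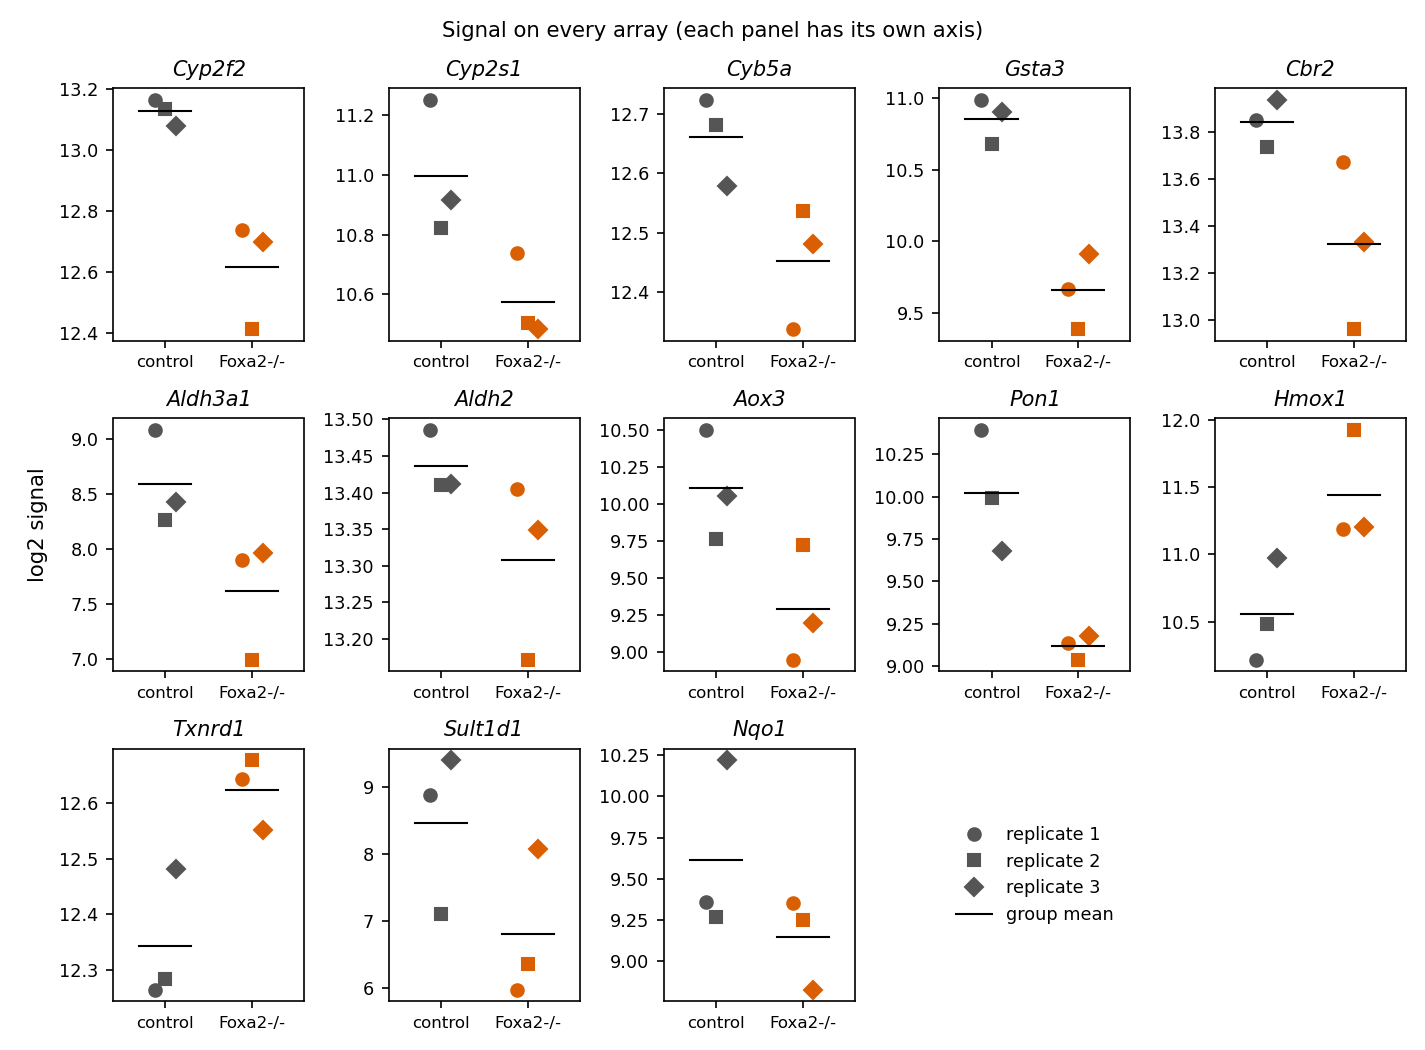
Log2 signal on each array for the 11 genes whose groups do not overlap and for Sult1d1 and Nqo1, with a symbol per replicate and a line at each group mean; every panel has its own axis. The gap is widest for Gsta3, close to 0 for Aldh2, and Sult1d1 and Nqo1 overlap.

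The genes of oxidant defence did not move one way. Hmox1, the haem oxygenase that breaks haem down to biliverdin, read 10.22, 10.48 and 10.98 in controls and 11.19, 11.92 and 11.21 in null lungs. Every null array was at least 0.21 above the controls, and null replicate 2 was the highest. The means of 10.56 ± 0.38 and 11.44 ± 0.42 (SD, n = 3 each) differ by 0.88 (SE 0.27, 95% interval 0.22 to 1.54), a 1.84-fold higher signal with a limma adjusted p of 0.261. Within the shared number Hmox1 differed by 1.08.

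Txnrd1, the cytosolic thioredoxin reductase, read 12.26, 12.28 and 12.48 in controls and 12.64, 12.68 and 12.55 in null lungs. The groups were apart by 0.07, with a difference of 0.28 (SE 0.11, adjusted p = 0.387). It is the single gene of the 11 with several probe sets whose probe sets disagreed in sign, since the dimmer ones gave -0.01 and 0.14.

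Nqo1, the quinone reductase and the textbook target of the antioxidant response element, read 9.36, 9.27 and 10.22 in controls and 9.36, 9.25 and 8.83 in null lungs. Control replicate 3 was high, null replicate 3 was low, and the other 4 arrays lay together. The difference was -0.47 (SE 0.29, 95% interval -1.15 to 0.21, adjusted p = 0.573), and -0.17 without control replicate 3. The glutathione peroxidases Gpx2, of epithelia, and Gpx3, the secreted form, differed by -0.24 (SE 0.18) and -0.19 (SE 0.17), and both overlapped. Among genes known to share induction through Nfe2l2, Hmox1 and Txnrd1 thus had positive values, Nqo1 and Gpx2 negative ones, and Gsta3 fell. These are named as examples and are not the full set of such genes.

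The arrays did not contribute evenly. Of the 36 genes, null replicate 2 was the lowest of the 6 arrays for 16, null replicate 1 for 7 and null replicate 3 for 6, while each control was the lowest for 2 or 3. The median deviation of the 36 genes from the control mean was 0.06, -0.09 and 0.01 in control replicates 1, 2 and 3. It was -0.10, -0.28 and -0.17 in null replicates 1, 2 and 3. The corresponding medians over all genes were 0.09, -0.02 and -0.03 in the null arrays. Control replicate 2, the control with the lowest median, came within 0.01 of null replicate 1.

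Marker genes of the lung's cell types were read on the same arrays. Of 8 club cell markers outside the 36 genes none passed, and their median difference was -0.38. The difference was negative for 6 and positive for 2, where 49.2% of all genes had a negative one. Every null array lay below all controls for 2 (25%) and above them for 1 (12.5%), against 8.73% and 10.8% of all genes. Scgb1a1, the main club cell secretory protein, differed by -0.07 (SE 0.10), Scgb3a1 by 0.34 (SE 0.60) and Scgb3a2 by -0.25 (SE 0.11). Cldn10, a claudin of club cells, read 11.19, 11.08 and 11.40 in controls against 10.44, 10.45 and 10.23 in null lungs (-0.85, SE 0.13, adjusted p = 0.0605). Pigr, the immunoglobulin transporter of airway epithelium, differed the other way, with 7.41, 6.08 and 8.13 in controls against 8.65, 9.15 and 8.73 in null lungs (1.63, SE 0.50, adjusted p = 0.245). The summed linear signal of the 8 markers ran from 43783 to 58397 in controls and from 44906 to 49382 in null lungs. The groups overlapped in this sum, with control replicate 2 lowest of all. The sum follows the brightest markers and does not weigh the 8 evenly. Scgb1a1 read 14.30 to 14.43 over all arrays. Control replicate 2 read 11.07 for Scgb3a1, against 13.16 and 13.49 in the other controls. None of the 8 was below the 25th percentile of probe sets in its mean. Their part in the values of Gsta3, Cyp2f2, Cbr2, Aldh3a1 and the other enzymes of these cells was not tested.

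**Figure D3:**
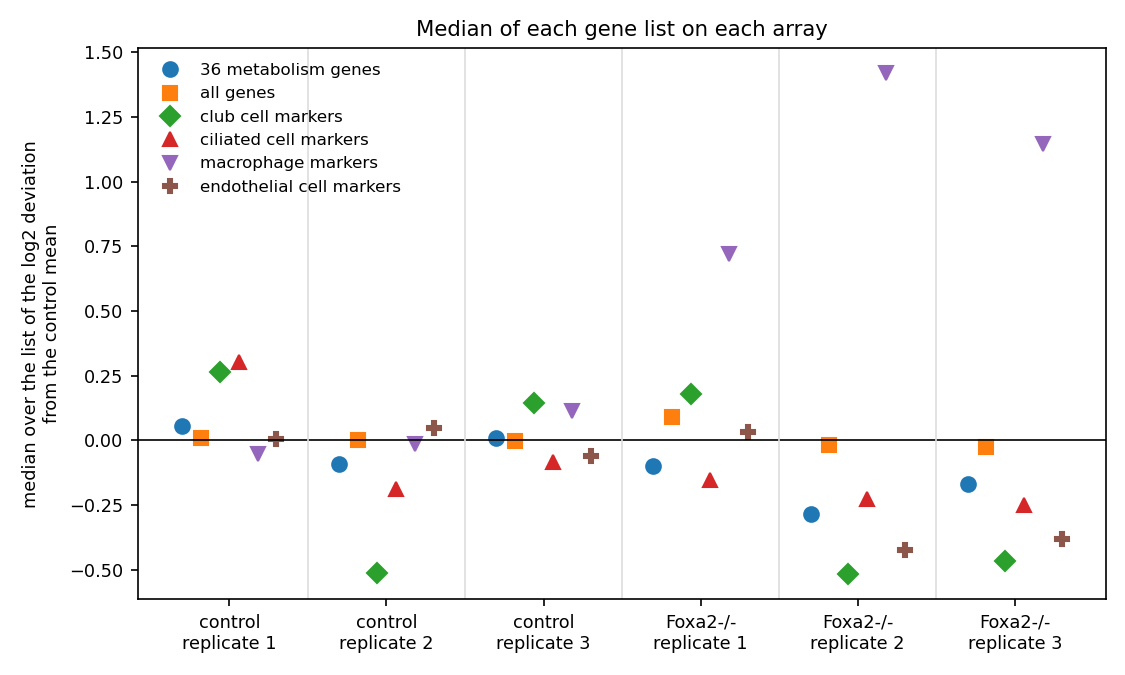
Median over each gene list of the log2 deviation from the control mean, per array, for the 36 metabolism genes, all genes and 4 marker lists. The metabolism genes lie below all genes on the 3 null arrays, the macrophage markers lie well above 0 there, and the club cell markers are as low in control replicate 2 as in null replicates 2 and 3.

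All 8 ciliated cell markers had negative differences (median -0.24) and none passed. Their summed signal lay between 12043 and 15789 on control arrays and between 8969 and 11554 on null arrays. Such sums follow the brightest markers. The median deviation of the 8 overlapped, at -0.19 in control replicate 2 and -0.15 in null replicate 1. Every null array lay below all controls for 2 of the 8 (25%), against 8.73% of all genes. All 7 endothelial markers were negative too (median -0.25), with sums of 41112 to 41711 in controls against 42263 in null replicate 1 and 30907 and 32063 in null replicates 2 and 3. All 7 fibroblast markers were negative (median -0.14), with sums of 79835 to 84148 and 71332 to 76819. The 7 alveolar type I markers had a median of -0.15 and the 7 measured alveolar type II markers one of 0.02. Macrophage markers were higher, with 3 of 8 that passed (Cd68, Itgax and Trem2), a median of 1.10 and sums between 22100 and 26224 (controls) and between 35962 and 48506 (null). Eosinophil markers had 3 of 6 that passed (Prg2, Epx and Prg3), a median of 1.76 and sums of 814 to 1034 and 2620 to 5529. For comparison, 49.2% of all genes had a negative difference, 0.572% passed and 0.473% passed upward. The 6 measured hepatocyte markers had a median of 0.11 and overlapping sums of 427 to 541 and 457 to 551. The 3 measured erythroid genes had a median of 0.31, with null replicate 1 the highest. The part of these cell types in the enzyme values, including that of Hmox1, which macrophages express, was not tested.

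Beyond the 38 genes, 171 others of the same pathways were looked up and 156 were measured. Of these 2 rose and 1 fell, 1.92%, and the median difference was 0.01. Over all genes 0.572% passed. Every null array lay below all controls for 24 (15.4%) and above them for 22 (14.1%), against 8.73% and 10.8% of all genes. In the settings where no gene of the array passed (the shared number as a fixed block, or any 1 of control replicates 1 and 2 and null replicate 3 left out), these 3 calls and those of the macrophage and eosinophil markers ended as well. The 15 other glutathione transferases measured held the one that fell. Gstz1, the zeta-class enzyme of tyrosine breakdown, read 10.32, 10.33 and 10.57 in controls and 9.51, 9.43 and 9.42 in null lungs, a fall of 0.96 (SE 0.12, adjusted p = 0.0367). Every null array lay below all controls for 5 of the 15 (33.3%), against 8.73% of all genes, and the median was -0.20. Gsta2, an alpha-class relative of Gsta3, read 9.59, 8.79 and 8.90 in controls and 7.83, 6.54 and 7.05 in null lungs (-1.95, SE 0.37, adjusted p = 0.0913), and Gstm3 and Gstm4 differed by -0.61 (SE 0.18) and -0.03 (SE 0.28).

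Both rises were among the 32 measured antioxidant enzymes, whose median was 0.07. Me1, the malic enzyme that makes NADPH, read 10.02, 9.84 and 10.05 in controls and 11.21, 11.85 and 11.28 in null lungs, a rise of 1.48 (SE 0.19, adjusted p = 0.0412). Msrb1, which repairs oxidised methionine, read 11.45, 11.34 and 11.54 in controls and 12.32, 12.24 and 12.21 in null lungs, and rose by 0.81 (SE 0.11, adjusted p = 0.0435). Of the 32, every null array lay above all controls for 8 (25%) and below for 2 (6.25%), against 10.8% and 8.73% of all genes. Catalase (Cat, -0.18, SE 0.11) and the superoxide dismutases Sod1 (-0.03, SE 0.10) and Sod2 (0.16, SE 0.16) did not pass.

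None of the 15 sensing factors passed. The dioxin receptor Ahr (-0.36, SE 0.23), its partner Arnt (-0.17, SE 0.10), Nfe2l2 (-0.12, SE 0.14) and its inhibitor Keap1 (0.27, SE 0.13) all had adjusted p values of at least 0.479. Ppara differed by -0.63 (SE 0.15, limma adjusted p = 0.156), with every null array below all controls. Nr1i2, dim on these arrays, differed by 0.41 (SE 0.14, limma adjusted p = 0.29), with every null array above them. Such gaps occurred for 2 of the 15 below and 2 above (13.3% each), against 8.73% and 10.8% of all genes. The others were Arnt, with null arrays below by 0.09, and Keap1, with null arrays above by 0.005. Of the 29 other P450 genes measured none passed, 12 were below the 25th percentile, and the median was 0.04. The 2 with the smallest adjusted p went opposite ways: Cyp4f18, a P450 of leukocytes that acts on leukotriene B4, differed by 2.18 (SE 0.34, adjusted p = 0.0599), and Cyp4f15 by -1.09 (SE 0.19, adjusted p = 0.0795). None passed among 27 other oxidoreductases of alcohols, aldehydes and carbonyls (median 0.04), 16 other conjugating enzymes (-0.06), 11 other hydrolases (0.02) or 11 efflux transporters (-0.17). Every null array lay below all controls for 4 of the 11 transporters, against 8.73% of all genes. One of the 4, named after its value was seen, was the drug pump Abcb1a (-0.70, SE 0.14, adjusted p = 0.109), which in lung is known from endothelium.

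**Figure D4:**
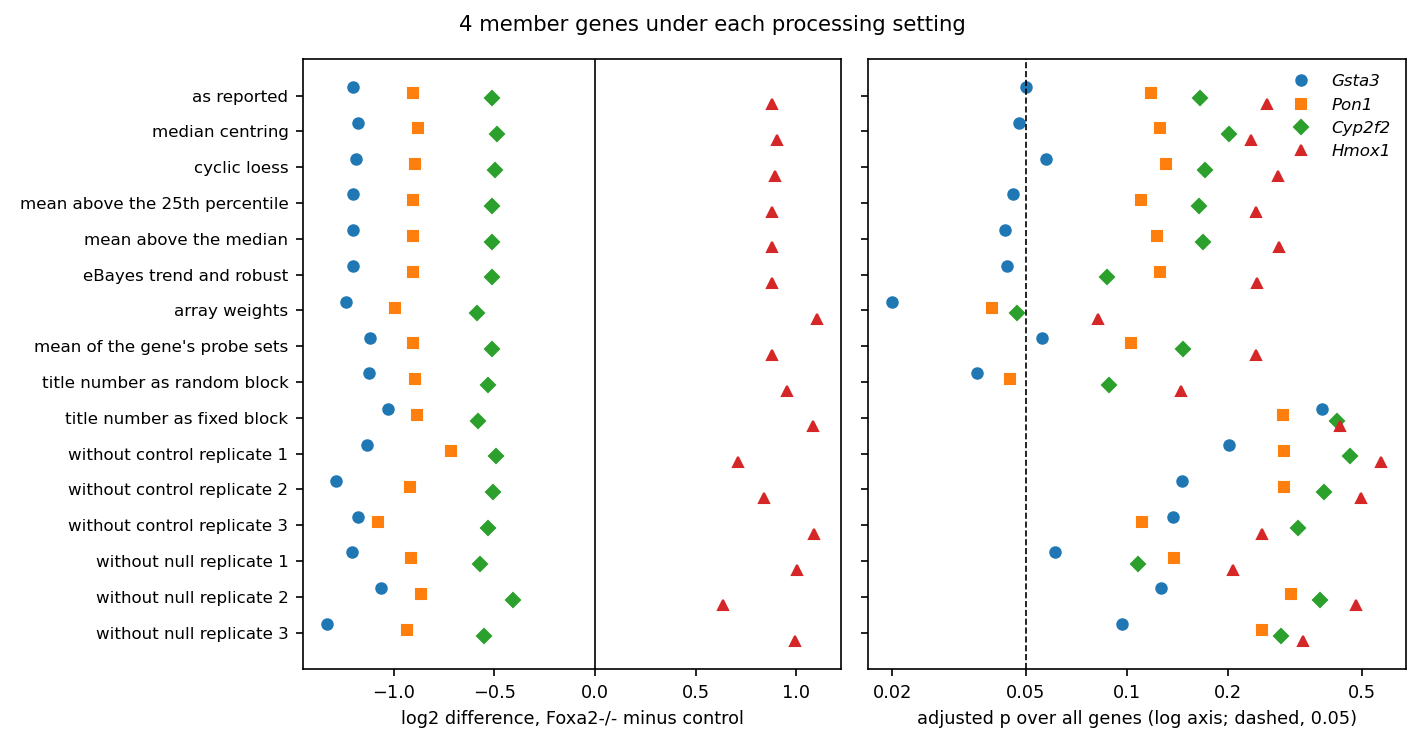
Log2 difference (left) and adjusted p over all genes (right, log axis, dashed line at 0.05) of Gsta3, Pon1, Cyp2f2 and Hmox1 as reported and under 15 other settings. The differences keep their signs throughout, while only Gsta3, Pon1 and Cyp2f2 pass the line, each in some settings.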

How the data were processed

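The authors' deposited values are log2 probe set signals, 1 array per sample, made with RMA per the submitters' processing notes; no version or settings are stated there. RMA brings arrays to a common distribution, so a shift of most genes would not be seen. Of 45101 probe sets, 64 Affymetrix controls were left out; of the other 45037, 34945 carried 1 gene symbol, 932 several and 9160 none here. The array medians, 7.85 to 7.91, were alike, and 3 arrays per group limit the precision. Samples were grouped by genotype label; replicate numbers follow accession order and pair nothing. The labels do not tie arrays to individual animals; p-values therefore reflect only how far these samples scatter, possibly for technical reasons.

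The difference between null and control was fitted over 18193 genes by lmFit and eBayes (limma 3.58.1, R 4.3.3), two-sided, with Benjamini-Hochberg adjustment over all genes, a threshold of 0.05 and 95% intervals. The test was checked on simulated data. No filter on dim signal was used. Alternatives were median centring, cyclic loess, 2 brightness filters, trend and robust eBayes, array weights, averaged probe sets per gene, the title number as a random block (statmod 1.5.0) or a fixed block, and each sample left out.

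The genes and lists were chosen with earlier results of these data known, so no list was tested. All 38 genes are named; values of every array are given where a gene passed or its groups do not overlap, and for Cyp2f2, Nqo1 and Hmox1. From the other lists, genes that passed and up to 3 more in list order are named. Cldn10, Pigr, Cyp4f15, Cyp4f18, Nfe2l2, Keap1, Ppara, Nr1i2 and Abcb1a, and the array values printed for any other gene, were chosen after their values were seen. Entrez identifiers of all 36 measured genes were found in the RefSeq gene table of GRCm38.p6, used for neighbours. Upstream windows were cut to 250 bases from the RefSeq promoter table.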

Additional observations from a re-analysis of the deposited data

How the results depend on the processing

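The median difference over the metabolism genes stayed negative in all 15 alternatives. The number of these genes that passed, 1 as reported, was 0 with cyclic loess, with averaged probe sets per gene and with the title number as a fixed block, 2 with that number as a random block, 3 with array weights, and 0 without any 1 sample. Over all genes the count, 104 as reported, was 48 with cyclic loess, 52 over genes above the median brightness, 607 with array weights, 399 with the random block, 0 with the fixed block, and 0 to 249 without 1 sample. The number of metabolism genes with every null array below all controls was 9 as reported. It was 7 with cyclic loess, 8 with median centring and over genes above the median brightness, and 9 to 16 without 1 sample. The number above, 2 as reported, was 2 to 4 without 1 sample, where 14.3% to 17.5% of all genes lay above. It was 1 with the mean of probe sets, where 11.3% of all genes did so, against 10.8% as reported. These counts of arrays that do not overlap were added after seeing the data. Leaving out a sample makes such gaps easier, and without control replicate 2 (16) and null replicate 1 (15) the shares of all genes below were 12.3% and 19.1%, against 8.73%. Signs turned with array weights for Cyp4b1 (-0.0759), Gsto1 (-0.0411) and Ephx1 (-0.12), with the random block for Cbr3 (0.0223) and Ephx1 (-0.0332), and with the fixed block for Cyp4b1 (-0.0351), Cyp2e1 (-0.39), Cbr3 (0.0309), Ephx1 (-0.19), Ephx2 (0.16) and Sult1d1 (0.12). Without 1 sample the ranges of genes whose sign turned were -0.0831 to 0.24 for Cyp4b1, -0.54 to 0.00054 for Cyp2b10, -0.40 to 0.10 for Cyp1a1, -0.39 to 1.17 for Cyp2e1, -0.19 to 0.0348 for Fmo5, -0.16 to 0.14 for Gsto1, -0.0886 to 0.27 for Gstp1, -0.21 to 0.10 for Cbr3 and -0.13 to 0.19 for Ephx1. None of these genes passed in any setting, and the cause was not tested. Where none of them passed, 3 to 12 of the metabolism genes had an unadjusted limma p under 0.05, and 1654 to 2866 of all genes did. The fixed block leaves 1 control and 2 null arrays. No paired analysis was possible because replicate numbers follow accession order; the title number that 1 control and 2 null samples share was fitted as a block instead. With values that do not show background, dim genes such as Cyp1a1 carry the least information.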
